A study of Mus musculus with 180 samples.

Results

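PF-04691502 is a clinical kinase inhibitor (CKI) whose designated targets are the catalytic subunits of class I PI3K and the kinase mTOR. It was studied here in mouse bone marrow-derived macrophages (BMDM) activated with lipopolysaccharide (LPS), by RNA-seq of the 3 samples labelled with PF-04691502 against the 6 samples labelled with the vehicle DMSO, out of 180 samples in all. Every gene with a mean normalized value of 10 or more over the 180 samples was included, which left 12714 of 45070 genes. The study asked how 58 CKIs act on the response of macrophages to LPS, with 3 samples per CKI and 6 DMSO samples that carry the names of 2 sets of 3. All samples shared the same background: BMDM grown from wild-type male C57/BL6 mice of 6 to 8 weeks, given a CKI or DMSO 1 h before LPS, and harvested after 2 h of LPS at 10 ng/ml. No sample without LPS enters the comparisons, so each one shows how LPS-activated cells differ with and without the CKI.

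The concentration of each CKI was chosen by the study from its binding to a particular kinase in a chemical proteomics assay, so that concentrations differ between CKIs. For PF-04691502 that kinase was CSNK2A2, a catalytic subunit of casein kinase 2 (CK2), and not PI3K or mTOR. A single concentration and a single time were used, and the replicates are described as independent biological replicates. The value of a gene is its number of exonic reads after the study's scaling of each sample, rounded to a whole number, and is called the normalized value below. A difference is given as log2(PF-04691502/DMSO) on normalized values to which 1 was added, with its standard error (SE), and p-values are those of limma adjusted by the method of Benjamini and Hochberg over all 12714 genes. A gene was called higher or lower where this adjusted p was under 0.05. A number by which a gene rose, fell or differed, or that stands alone in parentheses after its name, is its log2 difference. Coordinates are those of mm10.

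PI3K is recruited by growth factor, cytokine and Toll-like receptors and makes the lipid PIP3, which brings the kinase AKT to the membrane. AKT phosphorylates the FOXO transcription factors and thereby keeps them out of the nucleus, and it relieves the block that the TSC complex puts on mTOR complex 1. Active mTOR complex 1 promotes translation and ribosome production, raises the activity of the sterol-sensing transcription factors SREBP-1 and SREBP-2, and holds autophagy and the lysosomal factor TFEB in check. In macrophages the pathway is a known modulator of the inflammatory response to LPS.

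PF-04691502 raised genes that FOXO factors are known to activate and lowered genes of cholesterol synthesis. Of 29 tested FOXO-linked genes 14 rose and 0 fell, and of 34 tested sterol and fatty acid genes 11 fell and 0 rose. Among 52 inflammatory genes that LPS is known to induce, 5 rose and 2 fell. Over all genes 13.1% were called, namely 1127 genes that rose (8.86%) and 536 that fell (4.22%). The gene lists were chosen with earlier results of these data known, and no list was tested as a group.

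The 9 libraries were not equal. PF-04691502 replicate 1 had the highest total of normalized values in the series, 12273349, while replicates 2 and 3 had 10503013 and 10611419 and the DMSO samples had from 9481416 to 11094387. Transcripts of the mitochondrial genome took 4.45%, 1.71% and 1.91% of the total in PF-04691502 replicates 1, 2 and 3, and from 0.759% to 1.94% in DMSO. The mean share was 2.69% ± 1.53 (SD, n = 3) against 1.15% ± 0.438 (SD, n = 6), with p = 0.0357 by a two-sided exact permutation test, and p = 0.143 by the same exact test without replicate 1. Without PF-04691502 replicate 1, the number of genes called fell from 1663 to 494, of which 329 rose (2.59%) and 165 fell (1.3%). Without replicate 2 of DMSO set 2 it was 915, and without any other single library it was between 1123 and 2493. The part of replicate 1's library properties in the results was not tested, so the counts of gene lists are also given without it, with the list's median where it turns in sign or moves by over 1.5 times. Same-numbered DMSO samples of the 2 sets deviated together (correlations of 0.35 to 0.55), so the 6 DMSO samples may not be independent, and the tests take them as independent. With the DMSO samples of each number averaged, which leaves 3 against 3, 713 genes were called (505 higher, 208 lower) and the mitochondrial share had p = 0.1, the smallest that this exact permutation test allows.

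**Figure D1:**
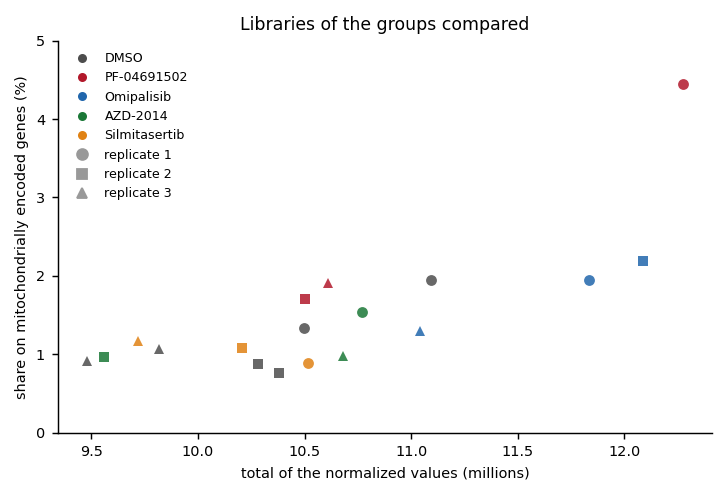
Total of normalized values of each library (horizontal axis, in units of 1e6) against the percentage of that total on genes of the mitochondrial genome (vertical axis), with 1 point for each of the 6 DMSO libraries and the 3 libraries of PF-04691502 and of the 3 CKIs it is compared with further down, coloured by group and shaped by replicate number. PF-04691502 replicate 1 stands alone at the upper right, at a total of 12273349 and a mitochondrial share of 4.45%.

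The median log2 difference over all genes was 0.10, so a typical gene was slightly higher in PF-04691502. When the samples were rescaled by medians of ratios, the median became 0.00 and the split changed from 1127 higher and 536 lower to 718 higher (5.66%) and 988 lower (7.79%). Lists of genes are therefore described below beside the median of all genes, and their counts are given on that scale where they differ in direction or by over 1.5 times. In bulk RNA, fewer cells of a kind and less RNA per cell cannot be told apart.

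Macrophage identity was checked first. Of 31 tested macrophage genes, such as the receptor for CSF-1 (Csf1r) and the lysozyme gene Lyz2, 0 were called in either direction, with a median log2 difference of 0.46 against 0.10 for all genes (0.26 against 0.08 without replicate 1). The summed normalized value of the 32 listed identity genes lay between 258599 and 452130 in PF-04691502 and between 194006 and 408761 in DMSO. Markers of B, T and NK cells summed to between 27 and 70 against 29 to 125, those of neutrophils to between 409 and 880 against 371 to 1182, and those of stromal, erythroid and mast cells to between 42 and 76 against 33 to 154. Those of dendritic cells summed to between 2373 and 4386 against 1706 to 3549. These ranges overlapped, and 3 of the 13 lymphoid and 7 of the 14 stromal, erythroid and mast cell markers were at 0 in all 9 samples. Among the markers of other cells, Elane, a neutrophil granule protease, was lower (log2 difference -1.57 ± 0.39, limma adjusted p = 0.00282) and Ccr7, a chemokine receptor of migrating dendritic cells, was higher (1.04 ± 0.35, limma adjusted p = 0.0382), and neither was called without replicate 1 (adjusted p = 0.219 and 0.101).

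**Figure D2:**
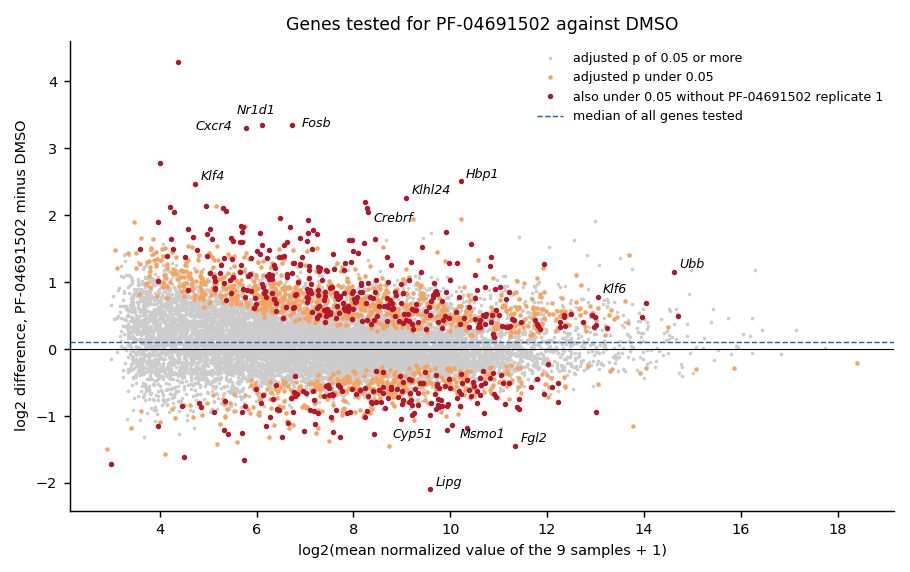
Log2 difference of PF-04691502 against DMSO (vertical axis) for each of the 12714 genes against the log2 of its mean normalized value over the 9 samples (horizontal axis). Grey points were not called, light points were called (1127 higher, 536 lower), dark points were also called without PF-04691502 replicate 1, and the dashed line is the median of all genes (0.10).

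The genes with the largest rises were a mixture of transcription factors, signalling regulators and receptors. They are the 15 with the largest log2 difference among genes that were called, that had all 3 PF-04691502 values above all 6 DMSO values, and that had a mean of at least 50 over the 9 samples, conditions that 630 genes met. Of these 15 genes, 14 were also called without replicate 1.

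Fosb (chr7:19302696-19310045), which encodes a subunit of the AP-1 transcription factor, had normalized values of 289, 350 and 165 in PF-04691502 replicates 1, 2 and 3, and from 17 to 40 with a median of 22.5 in DMSO. Every treated sample was far above the DMSO range. The log2 difference was 3.35 ± 0.44, which is 10.2-fold (limma, adjusted p = 2.24e-09). Nr1d1 (chr11:98767932-98775377), the gene of the clock repressor REV-ERB alpha, had values of 180, 189 and 137 against values from 6 to 32 with a median of 19 in DMSO. Its groups did not overlap either, with a log2 difference of 3.35 ± 0.41 (limma, adjusted p = 1.81e-10). Nr1d1 overlaps the gene Thra on the other strand, and since the libraries do not keep the strand, reads of the shared exons cannot be assigned to one of them. Cxcr4, the receptor for the chemokine CXCL12, stood at 182, 90 and 101 in the treated samples and from 2 to 55 with a median of 10 in DMSO. The DMSO samples were spread widely but all stayed below the treated ones, and the log2 difference was 3.30 ± 0.53 (limma, adjusted p = 1.41e-06).

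Hbp1 (chr12:31926455-31950245), an HMG-box repressor that slows entry into the cell cycle and is a known FOXO target, had values of 3042, 2373 and 2385 in the 3 treated samples. In DMSO it was from 252 to 767 with a median of 452. The lowest treated sample was far above the highest DMSO sample, and the log2 difference was 2.51 ± 0.32, or 5.69-fold (limma, adjusted p = 1.32e-09). Its locus overlaps Cog5 on the other strand, to which the same limit applies. Klhl24 (chr16:20097554-20127744), a substrate adaptor of cullin ubiquitin ligases, had 1157, 910 and 1375 against values from 129 to 311 with a median of 260.5. Its groups were fully apart, with a log2 difference of 2.26 ± 0.24 (limma, adjusted p = 7.83e-13). Crebrf (chr17:26715650-26776628), a regulator of the stress factor CREB3 and of energy balance, had 643, 506 and 734 against values from 96 to 213 with a median of 146.5. It was higher in every treated sample, by 2.11 ± 0.21 on the log2 scale (limma, adjusted p = 5.94e-14).

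Among the other leading rises were transcriptional regulators. Bhlhe40, a basic helix-loop-helix repressor that restrains Il10 in immune cells, had 443, 837 and 650 against values from 117 to 175 with a median of 153 in DMSO, a log2 difference of 2.05 ± 0.40 (limma, adjusted p = 0.00011). Irf4, a factor of alternative macrophage activation, had 81, 119 and 95 against values from 17 to 42 with a median of 26.5, with a log2 difference of 1.82 ± 0.44 (limma, adjusted p = 0.00209). In both genes all treated samples were above all DMSO samples. The corepressor gene Irf2bp2 rose by 1.78. Signalling and membrane genes formed the second set. Rgs1, which switches off G proteins downstream of chemokine receptors, had 2108, 734 and 785 against values from 147 to 561 with a median of 294.5, with a log2 difference of 1.95 ± 0.43 (limma, adjusted p = 0.000799). The value of replicate 1 was the highest by far, and Rgs1 was the only one of the 15 that was not called without it (adjusted p = 0.0726). The receptor gene P2ry10b rose by 2.19 and the anion transporter gene Slc26a11 by 1.96 on the log2 scale. Arg2, the mitochondrial arginase, had 361, 212 and 192 against values from 41 to 149 with a median of 50.5, with a log2 difference of 1.93 ± 0.34 (limma, adjusted p = 1.44e-05), and shares its locus with Vti1b on the other strand. The last of the 15 were Fbxl20, an F-box protein gene that rose by 1.84, and 2410006H16Rik, a host of small nucleolar RNAs that rose by 1.83.

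**Figure D3:**
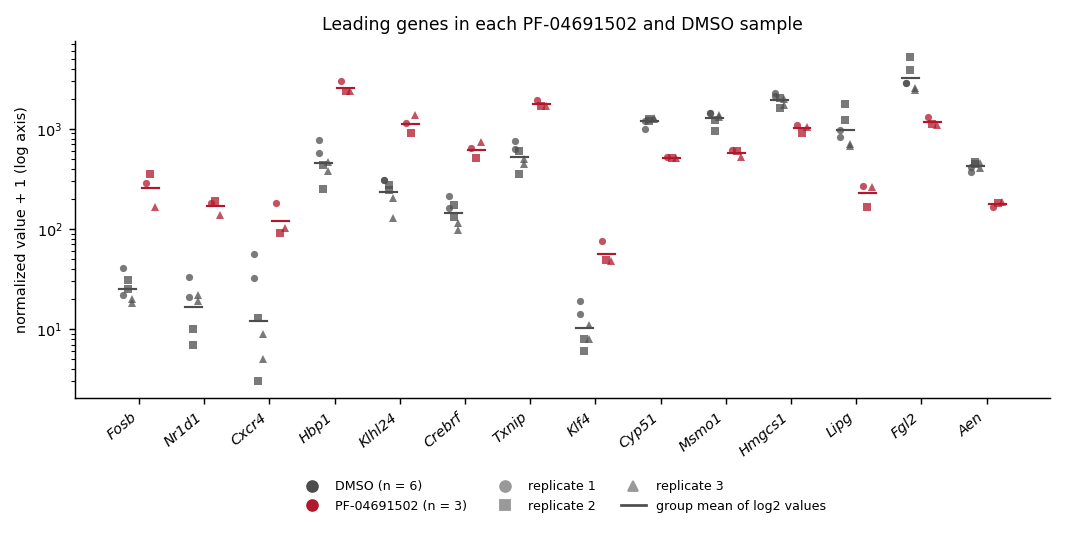
Normalized value plus 1 on a log axis for 14 genes with large rises (Fosb to Klf4) or falls (Cyp51 to Aen), with 1 point for each of the 6 DMSO (grey) and 3 PF-04691502 (red) samples, shaped by replicate number, and a line at the group's mean of log2 values. In every gene shown the PF-04691502 points lie wholly above or wholly below the DMSO points.

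The 15 leading falls were smaller in size, between -2.09 and -1.14 on the log2 scale, and were taken from 320 genes that met the same conditions in the other direction. Of these 15 genes, 9 were also called without replicate 1. Lipg, which encodes endothelial lipase, had 269, 165 and 263 in PF-04691502 and from 672 to 1790 with a median of 899.5 in DMSO. All treated samples were below every DMSO sample, with a log2 difference of -2.09 ± 0.38, or 76.6% lower (limma, adjusted p = 2.55e-05). Trmt61a, the catalytic subunit of a tRNA methyltransferase, had 19, 19 and 25 against values from 59 to 91 with a median of 64. It differed by -1.65 ± 0.31 (limma, adjusted p = 4.59e-05), again without overlap. Fgl2, a secreted and membrane-bound prothrombinase of activated macrophages, had 1311, 1110 and 1103 against values from 2436 to 5236 with a median of 2863.5. The 3 treated values were alike and stood well under the DMSO range, with a log2 difference of -1.44 ± 0.24 (limma, adjusted p = 2.08e-06).

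The other leading falls were of varied function. Pprc1 and Ppargc1b, members of the PGC-1 family of coactivators that drive mitochondrial genes, fell by 1.31 and 1.25 on the log2 scale. Nol10, a nucleolar protein gene, had 55, 23 and 65 against values from 77 to 152 with a median of 113, a log2 difference of -1.31 ± 0.25 (limma, adjusted p = 7.49e-05). Aen, an exonuclease gene induced by p53, had 163, 180 and 185 against values from 367 to 470 with a median of 432. The treated samples were close together and below the DMSO samples, with a log2 difference of -1.27 ± 0.16 (limma, adjusted p = 3.01e-10). Atg16l1, which helps to attach LC3 to autophagosome membranes, had 107, 88 and 92 against values from 164 to 414 with a median of 193, with a log2 difference of -1.23 ± 0.28 (limma, adjusted p = 0.000887). Cyp51, a cholesterol synthesis gene, was among the 15 and is described with its pathway. The remaining ones were Fscn1 (an actin bundling protein), Cnn3 (a calponin), Haspin (a histone H3 kinase), Zswim1, Cmpk2 (a mitochondrial nucleotide kinase induced by interferon) and the membrane metalloprotease gene Mmp25. Fscn1, Cnn3, Ppargc1b, Haspin, Zswim1 and Cmpk2 were the 6 that were not called without replicate 1, with adjusted p-values of 0.0606, 0.102, 0.13, 0.0611, 0.0578 and 0.0882.

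Many FOXO-linked genes rose. Of 29 tested, 14 rose and 0 fell (48.3% rose, against 8.86% of all genes), and 12 of 29 rose and 0 fell without replicate 1. After the median-of-ratios scaling 14 rose and 1 fell. Their median log2 difference was 0.61 against 0.10 for all genes. Klf4, a transcription factor of the Krüppel-like family, had 75, 48 and 47 in PF-04691502 and from 5 to 18 with a median of 8.5 in DMSO. The lowest treated value was well above the highest DMSO value, and the log2 difference was 2.47 ± 0.44 (limma, adjusted p = 1.88e-05). Txnip (chr3:96557957-96561857), which binds thioredoxin and limits glucose uptake, had 1953, 1700 and 1709 against values from 352 to 749 with a median of 545.5. Its samples were far apart, with a log2 difference of 1.75 ± 0.22 (limma, adjusted p = 4.16e-10), although it shares its locus with Gm15441 on the other strand.

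Genes of signalling components on the list, and of FOXO factors themselves, were among those that rose. Irs2, an adaptor that couples receptors to PI3K, had 137, 144 and 90 against values from 19 to 52 with a median of 35, a log2 difference of 1.74 ± 0.38 (limma, adjusted p = 0.00076). Foxo3 itself had 92, 87 and 86 against values from 17 to 68 with a median of 26.5, with a log2 difference of 1.61 ± 0.36 (limma, adjusted p = 0.000875), and no overlap between groups. Foxo1 had 39, 20 and 23 against values from 5 to 19 with a median of 8.5, with a log2 difference of 1.49 ± 0.39 (limma, adjusted p = 0.00594), but was not called without replicate 1 (adjusted p = 0.121). Foxo4 likewise rose by 1.32 with overlapping groups, and was not called without replicate 1 (adjusted p = 0.263). Further members that rose were the growth arrest genes Gadd45a (1.60), Ccng2 (1.15) and Cdkn1b (0.98), the repressor Bcl6 (1.59), the ubiquitin-binding protein gene Zfand5 (1.63) and the coregulator Cited2 (0.96). The smallest differences of the 14 were those of Bcl2l11 and Klf6. Bcl2l11, which encodes the death-promoting protein BIM, had 9352, 9178 and 10421 against values from 5795 to 7159 with a median of 6915, and still stood apart in every sample, with a log2 difference of 0.51 ± 0.08 (limma, adjusted p = 9.37e-07). Klf6 had 12245, 11622 and 11236 against values from 5409 to 7442 with a median of 6943, with a log2 difference of 0.78 ± 0.11 (limma, adjusted p = 1.28e-08). Among the 15 that were not called were Pik3ip1, a PI3K inhibitor (0.13 ± 0.33, adjusted p = 0.805), Sesn1 (-0.66 ± 0.30, adjusted p = 0.113) and the death ligand Tnfsf10 (-1.02 ± 0.47, adjusted p = 0.126).

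Promoters of 4 genes that moved are shown because they hold letters bound by factors that the pathway controls. Each runs from 250 bases before to 50 bases after the annotated start and is printed 5′ to 3′ on the strand of the gene, from RefSeq on build GRCm38.p6. Capitals mark GTAAACA, the core of the FOXO motif, in Hbp1 (chr12:31950196-31950495, minus strand) and Txnip (chr3:96557707-96558006, plus strand). They mark CACGTG, the E-box read by TFEB, MYC and clock factors, in Crebrf (chr17:26715400-26715699, plus strand), and CACCCCA, a form of the sterol response element, in Hmgcs1 (chr13:119690101-119690400, plus strand).
Hbp1: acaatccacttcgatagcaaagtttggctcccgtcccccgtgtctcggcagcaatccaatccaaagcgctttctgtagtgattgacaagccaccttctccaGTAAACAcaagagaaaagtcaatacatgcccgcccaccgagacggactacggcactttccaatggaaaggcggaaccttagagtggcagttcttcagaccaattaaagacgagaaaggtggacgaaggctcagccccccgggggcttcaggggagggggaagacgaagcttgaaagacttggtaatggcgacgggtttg
Txnip: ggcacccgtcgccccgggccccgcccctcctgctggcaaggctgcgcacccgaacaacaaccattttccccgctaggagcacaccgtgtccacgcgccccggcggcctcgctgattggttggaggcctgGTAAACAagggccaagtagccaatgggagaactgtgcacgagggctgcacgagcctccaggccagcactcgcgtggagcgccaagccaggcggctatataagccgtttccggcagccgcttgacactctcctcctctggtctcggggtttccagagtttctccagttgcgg
Crebrf: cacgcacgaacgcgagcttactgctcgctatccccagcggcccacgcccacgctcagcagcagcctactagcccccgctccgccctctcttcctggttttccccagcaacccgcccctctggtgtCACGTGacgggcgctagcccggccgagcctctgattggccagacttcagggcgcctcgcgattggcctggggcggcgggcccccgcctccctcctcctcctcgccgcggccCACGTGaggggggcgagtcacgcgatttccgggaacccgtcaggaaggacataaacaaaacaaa
Hmgcs1: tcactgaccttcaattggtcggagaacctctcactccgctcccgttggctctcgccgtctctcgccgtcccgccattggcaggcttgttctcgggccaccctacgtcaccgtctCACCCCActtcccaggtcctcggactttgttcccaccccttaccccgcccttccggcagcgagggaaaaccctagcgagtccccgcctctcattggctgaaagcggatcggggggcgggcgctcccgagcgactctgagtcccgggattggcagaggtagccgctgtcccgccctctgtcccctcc

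The FOXO letters begin 149 bases before the start of Hbp1 and 121 bases before that of Txnip. The E-boxes of Crebrf begin 125 and 14 bases before its start, and the sterol letters of Hmgcs1 begin 136 bases before its start. Each motif was searched on both strands of all 32851 RefSeq promoters of this length, of which 3.65% held GTAAACA, 7.15% held CACGTG and 7.62% held CACCCCA. The motifs share no letters at the positions shown. GTAAACA was present in 4 of 31 promoters of the FOXO-linked list (12.9%), which was taken whole and not limited to its tested members. These promoters belong to Txnip and Bcl2l11, which rose, and to Sesn1 and Trim63, which were not among the members that rose. The motif was in 4.64% of the 970 promoters of genes that rose and in 1.56% of the 512 promoters of genes that fell. Of the 11607 promoters of all tested genes 2.65% held it. CACGTG was in 8.56% of the promoters of genes that rose, in 14.1% of those of genes that fell and in 10.1% of those of all tested genes, so that it was less frequent among genes that rose, as Crebrf did, than among genes that fell. CACCCCA, which was searched after the values were seen, was in 2 of 33 promoters of the sterol list (6.06%). Among promoters of genes that rose it was in 7.73%, of genes that fell in 7.42% and of all tested genes in 7.79%. It was thus no more frequent in the sterol list or among genes that fell, as Hmgcs1 did, than among all tested genes. A match describes these letters alone, and binding was not measured.

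Genes of cholesterol synthesis fell. Of 34 tested sterol and fatty acid genes, 11 fell and 0 rose (32.4% fell, against 4.22% of all genes), and 10 fell and 0 rose without replicate 1. The median of the list was -0.16 against 0.10 for all genes. Cyp51 (chr5:4080674-4104697), the lanosterol demethylase, had 524, 509 and 509 in the treated samples and from 999 to 1280 with a median of 1224.5 in DMSO. The treated values were nearly equal and all below the lowest DMSO value, with a log2 difference of -1.22 ± 0.12, or 56.9% lower (limma, adjusted p = 1.74e-14). Msmo1 (chr8:64718123-64733578), a methylsterol oxidase of the next steps, had 609, 607 and 519 against values from 944 to 1429 with a median of 1344.5. Its difference was -1.14 ± 0.11 (limma, adjusted p = 1.74e-14), also without overlap.

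Enzymes of the early part of the pathway moved in the same direction. Hmgcs1 (chr13:119690351-119708260), which makes HMG-CoA, had 1083, 917 and 1046 against values from 1604 to 2310 with a median of 2020, a log2 difference of -0.95 ± 0.13 (limma, adjusted p = 6.97e-09). Its treated samples were all below the DMSO samples. Idi1, Sqle, Sc5d and Hsd17b7, enzymes of isoprenoid and sterol steps, fell by 0.84, 0.89, 1.04 and 1.12 on the log2 scale. Insig1, which retains the SREBP complex in the endoplasmic reticulum, fell by 0.63, and Srebf2, the gene of SREBP-2, by 0.57. Srebf2 was the member that was not called without replicate 1 (adjusted p = 0.146). No fatty acid synthesis gene of the list was called: Fasn had a difference of -0.53 ± 0.34 (limma, adjusted p = 0.283), Scd2 of -0.68 ± 0.27 (adjusted p = 0.0759) and Srebf1, the gene of SREBP-1, of 0.02 ± 0.18 (adjusted p = 0.936).

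**Figure D4:**
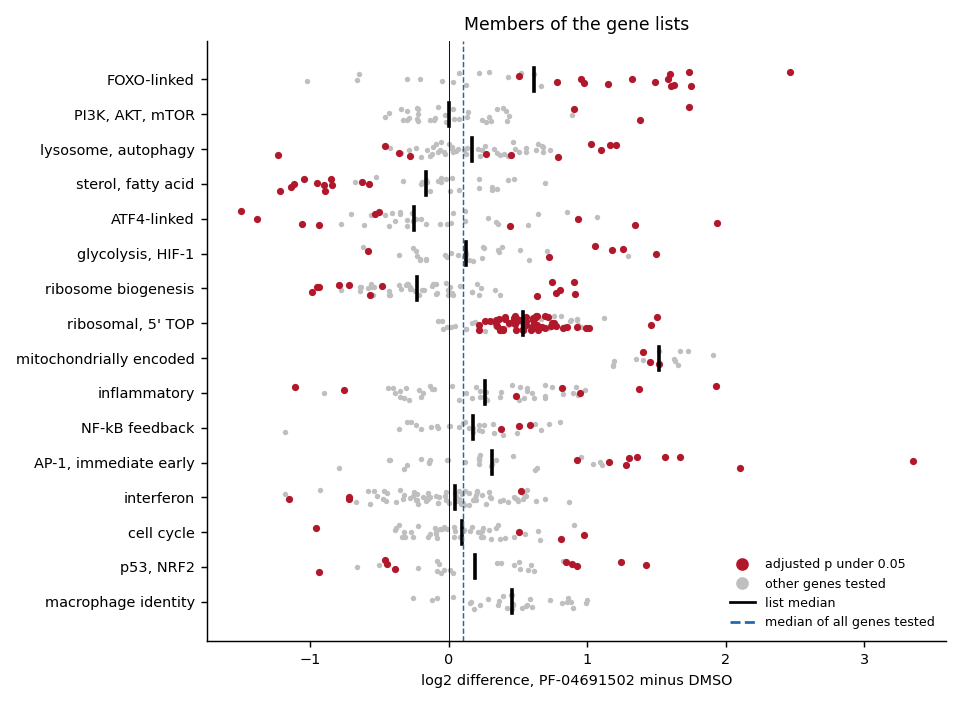
Log2 difference of PF-04691502 against DMSO for each tested gene of the lists (horizontal axis), with 1 row of points for each list, called genes in red, the list's median as a black bar and the median of all genes as a dashed line. In the sterol list 11 genes were called lower and 0 higher, and in the FOXO-linked list 14 higher and 0 lower.

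Of 36 tested PI3K, AKT and mTOR pathway genes 3 rose and 0 fell (2 and 0 without replicate 1, 3 and 1 after the further scaling), a share of rises of 8.33% that lies near the 8.86% of all genes. The list median was 0.01 (-0.01 without replicate 1). Pik3ca, the catalytic subunit p110 alpha, had 274, 134 and 211 against values from 51 to 127 with a median of 74.5 in DMSO. It was higher in every treated sample, with a log2 difference of 1.38 ± 0.29 (limma, adjusted p = 0.000268). The second was Irs2, and the third Phlpp1, a phosphatase of AKT, which differed by 0.90 ± 0.26 (adjusted p = 0.0126) with overlapping groups and was not called without replicate 1 (adjusted p = 0.194). Mtor differed by -0.43 ± 0.21 (adjusted p = 0.153). The 3 genes of CK2 subunits were not called: Csnk2a1 differed by 0.22 ± 0.16 (adjusted p = 0.36), Csnk2a2 by 0.76 ± 0.38 (adjusted p = 0.164) and Csnk2b by 0.03 ± 0.08 (adjusted p = 0.835). These are transcript levels and do not measure kinase activity.

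Of 56 tested lysosome and autophagy genes 7 rose and 4 fell (3 and 2 without replicate 1, 4 and 6 after the median-of-ratios scaling). These shares of 12.5% and 7.14% lie near the 8.86% and 4.22% of all genes, and the list median was 0.17 (0.09 without replicate 1), so the list as a whole did not stand apart. Ulk1, the kinase that starts autophagy, had 144, 135 and 119 against values from 41 to 71 with a median of 56.5, with a log2 difference of 1.21 ± 0.22 (limma, adjusted p = 1.55e-05). Atg14, a subunit of the class III PI3K complex, had 237, 325 and 270 against values from 101 to 144 with a median of 126.5, with a log2 difference of 1.17 ± 0.17 (limma, adjusted p = 1.33e-07). Gabarapl1, an autophagosome protein of the LC3 family, had 1707, 1602 and 1338 against values from 573 to 932 with a median of 738, with a log2 difference of 1.03 ± 0.14 (limma, adjusted p = 4.15e-09). In these 3 genes the groups did not overlap. Fnip1 (1.10), Ulk2 (0.79), Npc2 (0.45) and Map1lc3b (0.27) also rose. Besides Atg16l1, the conjugation gene Atg5 (-0.46), Becn1 of the class III PI3K complex (-0.28) and the proton pump subunit Atp6v0d1 (-0.36) fell. Tfeb had a difference of 0.51 ± 0.24 (adjusted p = 0.141).

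Genes carrying a 5′ terminal oligopyrimidine tract shifted upwards by small amounts. The list holds the ribosomal protein genes, other genes of translation, and some genes outside it such as Gas5, a non-coding host of small nucleolar RNAs. Of 93 tested, 61 rose and 0 fell (65.6% rose, against 8.86% of all genes). Called log2 differences lay between 0.22 and 1.50, and the list median was 0.54 against 0.10 for all genes. The summed normalized value of the list lay between 326946 and 427189 in PF-04691502 and between 242050 and 295209 in DMSO, so the groups did not overlap. Rpl3 had 6719, 6449 and 5938 against values from 3168 to 4977 with a median of 4440.5, with a log2 difference of 0.56 ± 0.16 (limma, adjusted p = 0.00873). It was higher in every treated sample. Eef2 was at 0.13 ± 0.09 (adjusted p = 0.359) and Tpt1 at -0.04 ± 0.11 (adjusted p = 0.805), neither of them called. Without replicate 1, 13 rose and 0 fell, while the list median was 0.44 against 0.08 for all genes, and the calls over all genes also fell, from 1663 to 494. After the further scaling 40 rose and 0 fell. Ribosomal protein genes have many processed pseudogenes, and the split of reads between copies is uncertain.

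Ribosome assembly genes gave calls in both directions. Of 56 tested nucleolar and RNA polymerase I genes 6 rose and 7 fell (10.7% and 12.5%, against 8.86% and 4.22% of all genes), with a median of -0.23 (-0.10 without replicate 1). Without replicate 1 these were 1 and 2, and after the further scaling 4 and 13. Npm1, a nucleolar chaperone, had 3094, 2705 and 3560 against values from 1415 to 2251 with a median of 1962.5, with a log2 difference of 0.74 ± 0.15 (limma, adjusted p = 0.000101). Wdr43, a factor of pre-rRNA processing, had 438, 432 and 493 against values from 611 to 1390 with a median of 930.5, with a log2 difference of -0.98 ± 0.22 (limma, adjusted p = 0.000966). One was higher and the other lower in every treated sample. The gene of the rRNA methyltransferase Nop2 fell by 0.95 and that of the polymerase I factor Rrn3 by 0.57. Myc differed by 0.03 ± 0.22 (adjusted p = 0.943).

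Stress and metabolic genes gave calls in both directions. Of 40 tested ATF4-linked genes 4 rose and 6 fell (10% and 15%, against 8.86% and 4.22% of all genes), with a median of -0.25 (-0.07 without replicate 1). Without replicate 1 these were 1 and 0, and after the further scaling 3 and 11. Slc38a2, an amino acid transporter that rises when amino acids are scarce, had 2770, 2929 and 3416 against values from 1095 to 2028 with a median of 1645, with a log2 difference of 0.93 ± 0.20 (limma, adjusted p = 0.000539), and was the member still called. Trib3, a pseudokinase induced by ATF4, had 9, 32 and 30 against values from 35 to 93 with a median of 58. Replicate 1 was by far the lowest, the difference was -1.38 ± 0.34 (limma, adjusted p = 0.00251), and without replicate 1 the adjusted p was 0.231. The mitochondrial folate enzyme Mthfd2 differed by -1.06 ± 0.28 (limma, adjusted p = 0.00576) and was not called without replicate 1 (adjusted p = 0.125). Of 35 glycolysis and HIF-1 genes 5 rose and 1 fell (3 and 0 without replicate 1, 5 and 2 after the further scaling), with a median of 0.13. Their shares were 14.3% and 2.86%, beside the same shares of all genes. The MAX partner Mxi1 had 88, 79 and 79 against values from 26 to 44 with a median of 35, with a log2 difference of 1.26 ± 0.21 (limma, adjusted p = 6.13e-06). Hif1a itself fell by 0.58.

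Of 28 p53 and NRF2 genes 5 rose and 4 fell (3 and 1 without replicate 1), with a median of 0.19. These shares were 17.9% and 14.3%, against 8.86% and 4.22% of all genes. Bbc3, which encodes the death-promoting protein PUMA and is also a FOXO target, had 117, 140 and 86 against values from 30 to 56 with a median of 41, with a log2 difference of 1.43 ± 0.28 (limma, adjusted p = 9.56e-05). All treated samples were above the DMSO range. Of 49 cell cycle genes 3 rose and 1 fell (1 and 0 without replicate 1, 2 and 2 after the further scaling), with a median of 0.10. Their shares were 6.12% and 2.04%. The phosphatase gene Cdc25a, needed for entry into S phase, was the one that fell, by 0.96. Of 15 mitochondrially encoded genes 3 rose (20%, against 8.86% of all genes), namely ND3 (1.52), ATP6 (1.40) and ATP8 (1.45). The list median was 1.52 (0.97 without replicate 1). Without replicate 1, 0 were called, and after the further scaling 1 was.

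Inflammatory genes were called about as often as all genes. Of 52 tested 5 rose and 2 fell (9.62% and 3.85%, against 8.86% and 4.22% of all genes), with a median of 0.27 (0.14 without replicate 1). Without replicate 1 these were 4 and 2, and after the further scaling 4 and 3. Plaur, the urokinase receptor, had 3513, 3062 and 2566 against values from 740 to 1983 with a median of 1129, with a log2 difference of 1.38 ± 0.28 (limma, adjusted p = 0.000231). Cxcl1, a chemokine that draws neutrophils, had 1216, 1180 and 1191 against values from 622 to 786 with a median of 645.5, with a log2 difference of 0.82 ± 0.19 (limma, adjusted p = 0.00157). Both were above the DMSO range in every treated sample. The costimulatory ligand Cd86 (0.95), the adhesion molecule Icam1 (0.49) and Arg2 were the other rises. F3, the tissue factor that starts coagulation, had 76, 51 and 41 against values from 85 to 151 with a median of 116.5, with a log2 difference of -1.11 ± 0.32 (limma, adjusted p = 0.0139), and Vcam1 fell by 0.75.

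The central cytokines were not called. Tnf differed by 0.08 ± 0.31 (limma, adjusted p = 0.882), Il6 by -0.12 ± 0.43 (adjusted p = 0.873), Il12b by 0.69 ± 0.29 (adjusted p = 0.0879) and Il10 by 0.62 ± 0.44 (adjusted p = 0.331). Il1b had 11569, 5478 and 6393 against values from 2842 to 6751 with a median of 3731.5, with replicate 1 the highest, and 0.94 ± 0.41 (adjusted p = 0.108). Of 32 NF-kB subunits and feedback inhibitors 3 rose and 0 fell (1 and 0 without replicate 1, and 0 and 1 after the further scaling), with a median of 0.17. The share of rises, 9.38%, lies near the 8.86% of all genes. Nfkbia, the inhibitor IκBα, had 42842, 44273 and 37884 against values from 32236 to 41142 with a median of 38061.5, ranges that overlap, with a log2 difference of 0.17 ± 0.09 (adjusted p = 0.182).

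Of 79 tested type I interferon genes 1 rose and 3 fell (0 and 1 without replicate 1), which is 1.27% and 3.8% against 8.86% and 4.22% of all genes. The list median was 0.05 against 0.10 for all genes, and turned to -0.23 against 0.08 without replicate 1 and to -0.06 against 0.00 after the further scaling. Ifnb1, the gene of interferon β, had 425, 151 and 125 in PF-04691502 and from 75 to 262 with a median of 92.5 in DMSO. Replicate 1 was above the DMSO range and replicates 2 and 3 within it, with a log2 difference of 0.87 ± 0.40 (adjusted p = 0.126). Rsad2, which encodes viperin, differed by -0.22 ± 0.29 (adjusted p = 0.617), and Ogfr by -0.57 ± 0.38 (adjusted p = 0.302). Cmpk2 had 8328, 6172 and 6777 against values from 10614 to 36530 with a median of 12808.5, with a log2 difference of -1.15 ± 0.39 (limma, adjusted p = 0.0339). Tor3a also fell (-0.72), and Irf9 was the one that rose (0.52).

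Several immediate early genes rose. Of 35 tested AP-1, EGR and MAPK feedback genes 9 rose and 0 fell (25.7% rose, against 8.86% of all genes), with a median of 0.31. Without replicate 1, 8 rose and 0 fell, and after the further scaling 8 rose and 2 fell. Besides Fosb, the orphan nuclear receptors Nr4a1 and Nr4a2 rose. Nr4a1 had 103, 141 and 118 against values from 26 to 56 with a median of 43, with a log2 difference of 1.56 ± 0.32 (limma, adjusted p = 0.000295). Zfp36l2, which binds AU-rich mRNA and promotes its decay, had 85, 72 and 80 against values from 8 to 25 with a median of 20, with a log2 difference of 2.11 ± 0.35 (limma, adjusted p = 2.65e-06). In both every treated sample exceeded every DMSO sample. Dusp6, a phosphatase of ERK, rose by 1.16, Btg2, a deadenylation factor, by 1.30, Klf10 by 1.28, Ier5 by 1.36 and Egr2 by 0.93. Jun differed by -0.42 ± 0.26 (adjusted p = 0.255).

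PF-04691502 was then set against 3 other CKIs in direct contrasts that do not use the DMSO samples. Omipalisib is an inhibitor of PI3K and mTOR, AZD-2014 an inhibitor of the mTOR kinase in both its complexes, and Silmitasertib an inhibitor of CK2. Concentrations differ between the 4 CKIs and were set on different kinases, so a difference of compound and a difference of dose cannot be told apart. The 4 groups have 3 samples each.

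Against Omipalisib, 164 genes were higher in PF-04691502 (1.29%) and 589 lower (4.63%). Same-numbered samples of these 2 CKIs deviate together, and a fit with replicate number as a block called 1389 genes in place of 753. The number was 678 without replicate 1 of PF-04691502, 427 without its replicate 2 and 440 without replicate 3 of Omipalisib. Sterol genes were higher in PF-04691502 than in Omipalisib, with 8 of 34 higher and 1 lower (7 and 1 without replicate 1 of PF-04691502). Hmgcs1 had 1083, 917 and 1046 with PF-04691502 and 507, 501 and 461 with Omipalisib, far apart, a log2 difference of 1.05 ± 0.15 (limma, adjusted p = 3.11e-08). Cyp51 had 524, 509 and 509 against 259, 244 and 242, with a log2 difference of 1.05 ± 0.14 (limma, adjusted p = 2.28e-09). In both genes the Omipalisib values were further below DMSO than those of PF-04691502. Of 29 FOXO-linked genes 2 were higher and 3 lower (1 and 3 without replicate 1). Hbp1, which is not on that list, stood at 2682, 3038 and 2015 with Omipalisib, which overlaps the PF-04691502 values. Its log2 difference was 0.02 ± 0.37 (adjusted p = 0.987).

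Some inflammatory and interferon genes separated PF-04691502 from Omipalisib. Over all genes 4.63% were lower and 1.29% higher in this contrast. Of 52 inflammatory genes 15 were lower in PF-04691502 and 0 higher, and 37 were not called. Of 79 interferon genes 8 were lower and 0 higher, and 71 were not called. Without replicate 1 of PF-04691502 these were 15 and 11 lower and again 0 higher. Ccl2, a chemokine for monocytes, had 6380, 6079 and 6467 with PF-04691502, 27618, 31115 and 27303 with Omipalisib and from 6977 to 8431 with a median of 7788 in DMSO. The PF-04691502 values lay just under the DMSO range and the Omipalisib values far above it, and the direct log2 difference was -2.18 ± 0.14 (limma, adjusted p = 1.84e-27). Gdf15, a stress-induced cytokine, had 110, 112 and 35 against 992, 1755 and 821, the largest fall by the rule, with a log2 difference of -3.88 ± 0.52 (limma, adjusted p = 5.41e-09). Ifnb1 stood at 1727, 2207 and 726 with Omipalisib, above all PF-04691502 samples, with a log2 difference of -2.80 ± 0.46 (limma, adjusted p = 2.5e-06). Rsad2 differed by -1.77 ± 0.33 (limma, adjusted p = 5.69e-05). The other leading genes were Plagl1 (-2.73), Rgs1 (-2.70) and the serotonin receptor gene Htr2a (-2.70) below, and the chemokine gene Ccl24 (1.98), Tnfaip8l1 (1.81), the factor Pou2f2 (1.44) and the receptor gene Gpr18 (1.34) above. Gpr18 overlaps Ubac2 on the other strand. Ccl24 and Gpr18 were not called without replicate 1 of PF-04691502. Of 56 lysosome and autophagy genes 1 was higher and 9 lower (1 and 8 without that replicate), and 46 were not called.

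Against AZD-2014, 779 genes were higher in PF-04691502 (6.13%) and 11 lower (0.0865%). With the median-of-ratios scaling these were 520 and 51. The total of 790 became 522 without replicate 1 of PF-04691502 and 467 without replicate 2 of AZD-2014. Dusp1, a phosphatase that switches off p38 and JNK, had 13784, 12166 and 11187 with PF-04691502, 927, 683 and 952 with AZD-2014 and from 7541 to 27409 with a median of 21023.5 in DMSO. The AZD-2014 values lay far under both other groups, and the direct log2 difference was 3.87 ± 0.46 (limma, adjusted p = 2.43e-10). Socs1, an inhibitor of cytokine receptor signalling, had 1353, 787 and 674 against 96, 57 and 115, with a log2 difference of 3.37 ± 0.64 (limma, adjusted p = 5.61e-05). Against DMSO the Socs1 difference of PF-04691502 was -1.18 and was not called, so it was no rise over DMSO. Immediate early genes were higher in PF-04691502 in 8 of 35 cases and lower in 0 (7 and 0 without replicate 1). Egr1 had 232, 167 and 105 against 30, 20 and 17, with a log2 difference of 2.82 ± 0.59 (limma, adjusted p = 0.000279). Of the members higher than with AZD-2014, Egr1, Dusp1 and Jun (1.48) were not among those that rose over DMSO, while Fosb (2.55) was. Klf4, of the FOXO-linked list, had 13, 11 and 9 with AZD-2014, below all PF-04691502 samples, with a log2 difference of 2.24 ± 0.51 (limma, adjusted p = 0.00105), and 3 of 29 members were higher and 0 lower (2 and 0 without replicate 1, 1 and 0 after the further scaling). In the sterol list 3 of 34 were higher and 2 lower (1 and 1 without replicate 1, 2 and 3 after the further scaling). Among those higher, Insig1 had 1198, 1101 and 977 with PF-04691502 and 627, 560 and 628 with AZD-2014. Its log2 difference was 0.85 ± 0.21 (limma, adjusted p = 0.00283), and it was still called without replicate 1 (adjusted p = 0.0304). Msmo1 was at 836, 811 and 844 with AZD-2014, above the PF-04691502 values, with a log2 difference of -0.52 ± 0.13 (limma, adjusted p = 0.00253). Cyp51 was at 636, 807 and 649 with AZD-2014 (-0.43, limma adjusted p = 0.0371), and was not called without replicate 1 (adjusted p = 0.0897). In Msmo1 and Cyp51 AZD-2014 was still below the DMSO values given above. Hbp1 was at 2088, 1317 and 1659 with AZD-2014, above the DMSO values given above, and was not called in the direct contrast (limma, adjusted p = 0.461). The other leading genes above were 0610012G03Rik (3.85), C1qbp (3.45) and Mtarc2 (3.29), and those below Ubox5 (-0.68), Calhm2 (-0.66), Myo1e (-0.49) and Cnn2 (-0.46). C1qbp overlaps Rpain, and Ubox5 overlaps Fastkd5. Ubox5 and Myo1e were not called without replicate 1 of PF-04691502.

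Against Silmitasertib, 534 genes were higher in PF-04691502 (4.2%) and 157 lower (1.23%), a total of 691. The total was 314 without replicate 1 of PF-04691502, 421 without its replicate 2 and 440 without replicate 3 of Silmitasertib, and the further scaling gave 345 higher and 302 lower. Of 29 FOXO-linked genes 12 were higher and 0 lower, and of 34 sterol genes 1 was higher and 10 lower. Without replicate 1 these were 8 and 0, and 0 and 8. Hbp1, which is not on the FOXO-linked list, had 3042, 2373 and 2385 with PF-04691502 and 443, 448 and 366 with Silmitasertib. The Silmitasertib range lay within that of DMSO, and the direct log2 difference was 2.63 ± 0.37 (limma, adjusted p = 5.23e-08). Txnip had 543, 582 and 482 with Silmitasertib, well under the PF-04691502 values, with a log2 difference of 1.74 ± 0.25 (limma, adjusted p = 1.16e-07). Cyp51 had 524, 509 and 509 against 886, 1187 and 989, with a log2 difference of -0.98 ± 0.14 (limma, adjusted p = 3.66e-08). In each of these genes PF-04691502 and Silmitasertib did not overlap. Fosb (2.76), Nr1d1 (2.73), Cxcr4 (2.55) and Klhl24 (2.35) were also among the 5 most above, and Lipg (-1.77), Nol10 (-1.42), Zbtb45 (-1.31), Micall2 (-1.28) and Spata5 (-1.21) were the 5 most below. Cxcr4, Zbtb45 and Spata5 were not called without replicate 1.

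**Figure D5:**
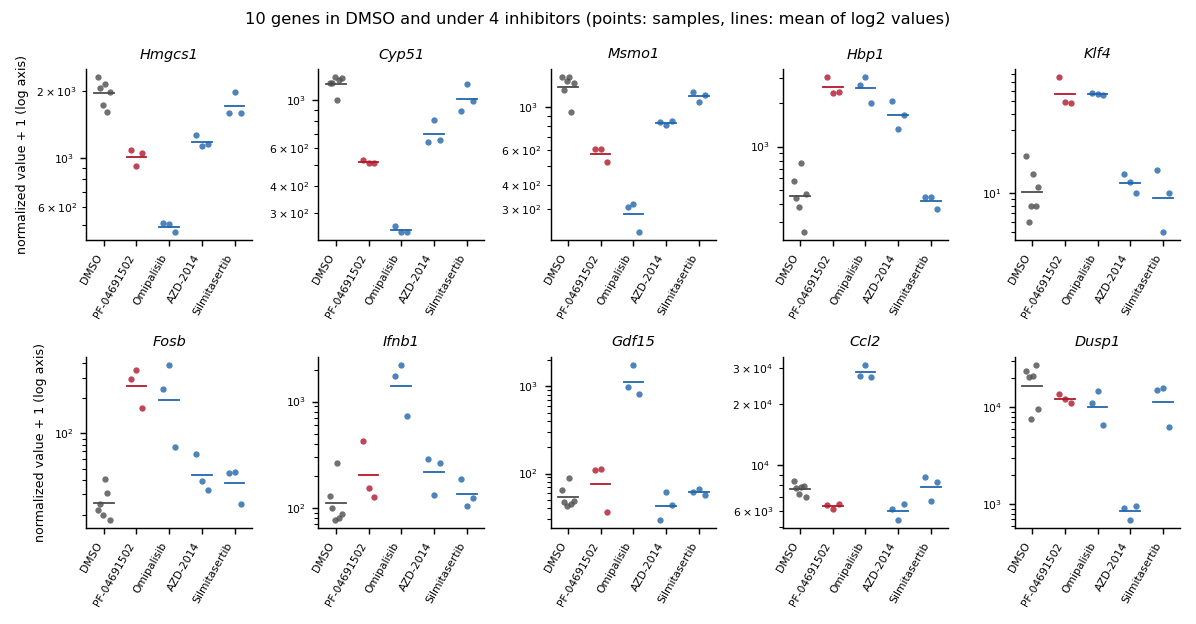
Normalized value plus 1 on log axes for 10 genes in DMSO (6 samples), PF-04691502, Omipalisib, AZD-2014 and Silmitasertib (3 samples each), with 1 point for each sample and a line at the group's mean of log2 values. Cyp51 is lowest with Omipalisib (242 to 259), Ccl2 is highest with Omipalisib (27303 to 31115) and Dusp1 is lowest with AZD-2014 (683 to 952). Hbp1 is high with PF-04691502 (2373 to 3042), lies between with AZD-2014 (1317 to 2088) and is low with Silmitasertib (366 to 448).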

How the data were processed

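RNA-seq was done on LPS-stimulated mouse BMDM. The labels and methods give SMART-seq2 polyA libraries without strand marking. The authors aligned reads with TopHat2 2.1.1 to mm10, kept 1 alignment per read, removed reads in blacklisted regions with bedtools 2.29.2, counted reads per curated RefSeq gene with R/Bioconductor packages and scaled each sample on invariant genes. The deposited values were rounded to whole numbers and are used here as a score, since counts could not be recovered, so no count test was run. Totals per sample lay between 9477340 and 12273349 over the 180 samples, and low genes carry a large counting error. No column of per-sample values was left without a sample, and groups and replicate numbers come from the labels.

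Genes with a mean of 10 or more were tested with limma 3.58.1 in R 4.3.3, with a variance trend, on log2(value + 1), which understates changes of low genes. All 59 groups entered 1 fit, and p-values were adjusted by Benjamini and Hochberg, with a threshold of 0.05. On data simulated for PF-04691502 against DMSO, 73% of genes changed by a log2 of 1 and 96% of those changed by 2 were found among 12694 genes, and 14 unchanged genes were called. The simulated samples were independent, without samples that deviate together and without a library like PF-04691502 replicate 1. These shares and false calls may therefore not hold for the real samples. Same-numbered samples of PF-04691502 deviated together with those of Omipalisib (correlations 0.12 to 0.36) and AZD-2014 (0.38 to 0.63). The labels do not give this pairing. The main fit has no replicate block, so p-values and counts do not use the pairing unless a block is named. With DMSO and Silmitasertib only replicate 1 deviated together (0.61 and 0.45). Replicates 2 and 3 did not (0.10 and -0.02 with DMSO, -0.01 and -0.02 with Silmitasertib). Same-numbered samples of the 2 DMSO sets deviated together (0.35 to 0.55). Mitochondrial shares were compared by exact permutation. Named genes are the 15 largest rises and falls that were called, did not overlap and had a mean of 50 or more (5 each way in direct contrasts), members of gene lists, and Ifnb1, Nfkbia, Rsad2, Cmpk2 and Ogfr. The members, lists and tests were chosen with earlier results of these data known. Promoters came from RefSeq.

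Alternatives covered the pseudocount, the filter, the scaling, the trend, the groups in the fit, the replicate block, the mitochondrial share, the DMSO sets (also averaged by number) and each sample left out. Overlapping genes and near-identical copies are uncertain. Some genes of the lists and of the rule are not reported here by name, although they are in the counts.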

Additional observations from a re-analysis of the deposited data

Results flagged for a closer look

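In 11 of 159 sets of DMSO values that were examined (6.92%; chance gives about 1 in 20), 1 of the 6 samples lay far from the other 5, by a gap that exceeded Dixon's critical share of the whole range. In 6 of them it was replicate 1 of set 2. This sample had a Foxo1 value of 19 (others 5 to 10), a Foxo3 value of 68 (others 17 to 35), a Gas5 value of 173 (others 50 to 91) and an Ifnb1 value of 262 (others 75 to 129). Its Cyp51 value of 999 was the lowest (others 1199 to 1280), and so was its Cdc25a value of 31 (others 69 to 84). Replicate 3 of set 1 was lowest for Bcl2l11 at 5795 (others 6770 to 7159) and for Klf6 at 5409 (others 6907 to 7442). Replicate 2 of set 2 was highest for Arntl at 84 (others 34 to 52) and for Hif1a at 2501 (others 1196 to 1684), and lowest for Rpl3 at 3168 (others 4412 to 4977). The groups of 3 PF-04691502 samples are too small for this check.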

How the results depend on the processing

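The number of genes called against DMSO, 1663, became 325 with a log2 difference of at least 1 (276 higher, 49 lower), 286 when only PF-04691502 and DMSO entered the fit, 707 with DMSO set 1 alone and 1017 with set 2 alone, and lay between 494 and 2493 when 1 sample was left out. With the same changes the numbers were 248 and 411 against Omipalisib (427 to 678 with 1 sample left out), 450 and 423 against AZD-2014 (467 to 762), and 211 and 58 against Silmitasertib (314 to 760). The pseudocounts, the filters and the fit without trend moved none of these 4 numbers by over 1.5 times, and the median-of-ratios scaling moved only the splits given above. With the replicate number as a replicate block, 3112 genes were called against DMSO (1962 higher, 1150 lower) and 1454 against Silmitasertib. In these 2 comparisons only replicate 1 of PF-04691502 correlated best with its own number (0.61 with DMSO and 0.45 with Silmitasertib). The replicate block gave 1389 against Omipalisib and 1156 against AZD-2014, and with the mitochondrial share added to the block the 4 numbers became 1323 against DMSO (769 higher, 554 lower), 869 against Silmitasertib, 1621 against Omipalisib and 1191 against AZD-2014. An alternative chosen after seeing the data, without PF-04691502 replicate 1 and with the replicate block, called 1640 genes against DMSO, and another, with same-numbered DMSO samples averaged, called 713. Why these numbers differ was not tested.

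The difference in mitochondrial share, 1.54 percentage points, lay between 0.660 and 2.03 with 1 sample left out. Only without replicate 1 of DMSO set 2 did the exact permutation p stay under 0.05, at 0.0179. It was 1.65 with DMSO set 1 alone (exact p = 0.1, the smallest possible with 3 against 3) and 1.43 with set 2 alone (exact p = 0.3). With same-numbered DMSO samples averaged it stayed at 1.54 (exact p = 0.1, the smallest possible). Within replicate numbers, as a replicate block, the exact p was 0.037.

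Of 116 examined genes called against DMSO, 52 were called under every alternative, 64 under every alternative but the log2 limit of 1, and 0 turned in sign. Low genes near the filter are limited by depth. The spread rests on 3 samples a group, and 1 concentration and 1 time were measured.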

Other observations

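The gene groups and genes in the next sentences were picked after the values had been seen, so their counts describe these samples and carry no test as groups. The 16 circadian clock genes tested had a median log2 difference of 0.58 against 0.10 for all genes. Of them 5 rose and 0 fell with PF-04691502 (31.2% rose, against 8.86% of all genes, and 3 and 0 without replicate 1). Besides Nr1d1 and Bhlhe40 they were Rora, an activator that competes with REV-ERB at the same sites, Nr1d2, which encodes REV-ERB beta, and the kinase gene Csnk1e. Rora had normalized values of 322, 285 and 244 in PF-04691502 replicates 1, 2 and 3, and from 60 to 101 with a median of 87.5 in DMSO, without overlap, with 1.73 ± 0.20 (SE, limma, adjusted p = 3.24e-11). The core genes Arntl (0.13 ± 0.24, adjusted p = 0.726) and Per1 (0.67 ± 0.39, adjusted p = 0.233) were not called.

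Of 15 non-coding host genes of small nucleolar RNAs, 8 rose and 0 fell (53.3% rose, against 8.86% of all genes, and 5 and 0 without replicate 1), with a median of 0.91. Zfas1 had 355, 164 and 204 against values from 49 to 117 with a median of 78.5, all above the DMSO range but highest in replicate 1, with 1.61 ± 0.29 (limma, adjusted p = 1.88e-05). Gas5 had 347, 161 and 170 against values from 50 to 173 with a median of 64, with overlapping groups and 1.46 ± 0.39 (limma, adjusted p = 0.00683), and was not called without replicate 1 (adjusted p = 0.165). It is also counted in the list with the ribosomal protein genes above. Of 16 genes of deadenylation, mRNA decay and splicing kinases 7 rose and 0 fell (43.8% rose, and 4 and 0 without replicate 1). This count is not separate from those above, since Zfp36l2 and Btg2 are also counted with the immediate early genes. Paip2, which inhibits the poly(A)-binding protein in translation, had 1190, 1076 and 1260 against values from 600 to 725 with a median of 644.5, with little spread in either group and 0.86 ± 0.08 (limma, adjusted p = 1.83e-14). Clk1, a kinase of splicing factors, had 484, 397 and 385 against values from 67 to 259 with a median of 137.5, with 1.63 ± 0.35 (limma, adjusted p = 0.000487). Of 12 ubiquitin and small modifier genes 5 rose and 1 fell (2 and 0 without replicate 1, 4 and 2 after the median-of-ratios scaling). These shares were 41.7% and 8.33%, against 8.86% and 4.22% of all genes. Ubb, a polyubiquitin gene, had 42456, 41504 and 34303 against values from 14095 to 21998 with a median of 16982.5, with 1.15 ± 0.13 (limma, adjusted p = 1.68e-11), and its near-identical copy Ubb-ps rose by 1.27, so that the division of reads between them is uncertain. Tsc22d3, the gene of the leucine zipper protein GILZ that glucocorticoids and FOXO3 are known to induce, had 295, 241 and 208 against values from 63 to 96 with a median of 71.5, with 1.73 ± 0.21 (limma, adjusted p = 1.95e-10). Frat1, which binds the kinase GSK3, had 50, 62 and 50 against values from 0 to 9 with a median of 1, the largest log2 difference of all tested genes at 4.29 ± 0.54 (limma, adjusted p = 7.97e-10). Its mean was under the minimum of 50 for the leading genes, and its DMSO values lie near 0, where the log2 difference depends on the added 1.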
